A study of Mus musculus with 8 samples.

Results

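Glucose transport and glycolysis were examined through 10 genes: the glucose transporters Slc2a1 and Slc2a4, the hexokinases Hk1 and Hk2, Pfkm and Pfkfb1 at the phosphofructokinase step, and Aldoa, Eno3, Pkm and Ldha further down the pathway. They were chosen by name for their place in the pathway, with earlier results of these data known. All 10 were among the 13227 genes counted in each library, and all 10 were among the 13226 genes tested. Whole hearts of mice of the inbred strain FVB/N, labelled male and adult at 3 months of age, were the source of the RNA sequenced. The 4 FASTKD1 transgenic hearts carry the letters A, B, C and E, and the 4 non-transgenic hearts the letters A, B, D and E. FASTKD1 belongs to a family of RNA-binding proteins that act in mitochondria. The series title calls the overexpression cardiac-specific, while the sources used here do not give the promoter behind the transgene, the number of founder lines or whether the controls were littermates. With 1 animal assumed for each library, p-values measure the spread between these libraries.

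Glucose enters heart muscle cells mainly through GLUT4, the insulin-regulated transporter made from Slc2a4, and also through GLUT1, the constitutive transporter made from Slc2a1. Hexokinase traps it as glucose 6-phosphate, phosphofructokinase commits it to glycolysis, and aldolase, enolase and pyruvate kinase carry the carbon on to pyruvate, which lactate dehydrogenase interconverts with lactate. The adult heart burns mostly fatty acids, and a greater reliance on glucose together with GLUT1 and HK1 is a known feature of the fetal heart.

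Total counts ran from 44584359 to 55769859 in transgenic libraries and from 45802079 to 50830215 in non-transgenic libraries. Fastkd1 averaged 9932 ± 1162 CPM (counts scaled to a common library size) in transgenic and 70.6 ± 80.9 CPM in non-transgenic hearts (n = 4 each, SD). The library labelled non-transgenic D went against its male label, with 0 counts over 4 Y-linked genes that gave 10372 to 15914 counts in each of the other libraries. It also had 192 CPM of Fastkd1, against 26.3 to 33.8 CPM in the other 3 non-transgenic libraries. The library labelled transgenic A stood apart in its atrial markers, whose 7 tested genes summed to 3201 CPM, against 35.8 to 275 CPM in the other transgenic libraries. The library labelled non-transgenic D had 628 CPM of them, against 34.0 to 105 CPM in the other non-transgenic libraries. None of the red cell or fat markers passed the adjusted threshold. At an unadjusted p under 0.05, 4 of 5 erythroid markers were lower in transgenic hearts, where 5.38% of all genes were. Their list median was -0.67, with sums of 300.3 to 418.9 CPM in transgenic and 357.3 to 808.1 CPM in non-transgenic hearts. The 5 adipocyte markers had a median of -0.77, with 0 under that p. Their sums were low and overlapped, at 2.59 to 16.4 CPM in transgenic and 0.818 to 33.1 CPM in non-transgenic hearts. Values without the libraries labelled non-transgenic D or transgenic A are given for some results only. All 10 cardiomyocyte markers were present, at summed levels of 60797 to 65629 CPM in transgenic and 75756 to 86927 CPM in non-transgenic hearts.

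None of the 10 genes passed an adjusted p of 0.05 in edgeR's quasi-likelihood test, against 165 of 13226 genes tested (1.25%). At an unadjusted p under 0.05, Slc2a1 and Hk1 were higher in transgenic hearts, where 5.37% of all genes were, and Pfkm, Pfkfb1, Eno3 and Ldha were lower, where 5.38% of all genes were. Without transgenic B, or without transgenic C, only 1 gene was higher by that measure, since Hk1 no longer passed it. The 4 transgenic hearts lay wholly above the 4 non-transgenic hearts for Slc2a1, as for 4.58% of all genes, and wholly below them for Pfkm, Eno3 and Ldha, as for 2.80% of all genes. The log2 fold change was below 0 for 8 of the 10 genes, with a median of -0.20 over the 10 and 0.01 over all genes tested. In bulk tissue, fewer cells of a type and less RNA per cell cannot be told apart. The 10 cardiomyocyte markers had a median log2 fold change of -0.31, and 8 of them were lower at an unadjusted p under 0.05. None of those 10 passed the adjusted threshold. Their part in the lower levels of Slc2a4, Pfkm, Eno3, Pkm and Ldha was not tested.

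The choice of tool and of libraries decided whether individual genes passed. DESeq2, which called 3.08% of all genes, called Slc2a1 higher (DESeq2 adjusted p = 0.0304) and Pfkm, Pfkfb1 and Eno3 lower (DESeq2 adjusted p = 0.00646, 0.00833 and 0.00534). limma-voom called 1.26% of all genes and 0 of the 10. Without the library labelled non-transgenic D, edgeR called 1.59% of all genes, and among the 10 it called Slc2a1 higher (log2 fold change 0.64, adjusted p = 0.0128) and Pfkfb1 lower (-1.04, adjusted p = 0.0151). In that fit Pfkm, Eno3 and Ldha did not pass (edgeR adjusted p = 0.0782, 0.0576 and 0.161).

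**Figure D1:**
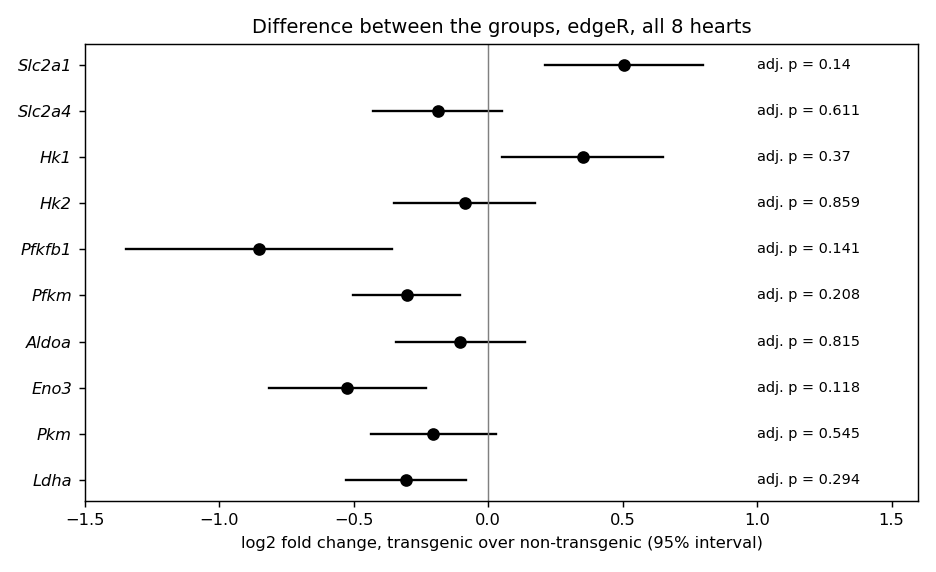
The log2 fold change of each of the 10 genes, transgenic over non-transgenic, is shown as a point with its 95% interval from the edgeR fit on all 8 hearts, and the adjusted p over all genes stands at the right. Slc2a1 and Hk1 lie to the right of 0, Pfkfb1, Pfkm, Eno3 and Ldha to the left with intervals that leave out 0, and the intervals of Slc2a4, Hk2, Aldoa and Pkm include 0.

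The promoters of the genes are shown for the transporter and hexokinase with a single listed start, for the enolase with the lowest unadjusted p, and for lactate dehydrogenase, whose window held the most copies of the motif searched. These 4 windows were chosen after their values were seen. Each is the 250 bases before a RefSeq transcription start on GRCm38.p6, read 5′ to 3′ on the gene's strand, and capitals mark the core letters of the hypoxia response element, ACGTG or GCGTG, on either strand. The windows are chr4:119108495-119108744 (+) for Slc2a1, chr6:82774455-82774704 (-) for Hk2, chr11:70656926-70657175 (+) for Eno3 and chr7:46845554-46845803 (+) for Ldha.
Slc2a1: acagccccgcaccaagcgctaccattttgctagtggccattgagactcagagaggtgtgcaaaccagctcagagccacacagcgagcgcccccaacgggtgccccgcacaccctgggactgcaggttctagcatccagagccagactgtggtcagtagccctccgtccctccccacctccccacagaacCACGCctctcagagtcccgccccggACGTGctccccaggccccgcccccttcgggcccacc
Hk2: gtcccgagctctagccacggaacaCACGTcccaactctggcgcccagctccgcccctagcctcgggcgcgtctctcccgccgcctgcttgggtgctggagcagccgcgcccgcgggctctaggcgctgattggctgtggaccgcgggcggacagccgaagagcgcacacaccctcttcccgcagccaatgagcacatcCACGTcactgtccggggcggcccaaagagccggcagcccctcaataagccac
Eno3: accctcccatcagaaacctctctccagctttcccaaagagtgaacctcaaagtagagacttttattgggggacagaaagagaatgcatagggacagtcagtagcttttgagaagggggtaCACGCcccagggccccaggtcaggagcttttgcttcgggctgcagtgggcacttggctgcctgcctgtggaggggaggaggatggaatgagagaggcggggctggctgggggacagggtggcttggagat
Ldha: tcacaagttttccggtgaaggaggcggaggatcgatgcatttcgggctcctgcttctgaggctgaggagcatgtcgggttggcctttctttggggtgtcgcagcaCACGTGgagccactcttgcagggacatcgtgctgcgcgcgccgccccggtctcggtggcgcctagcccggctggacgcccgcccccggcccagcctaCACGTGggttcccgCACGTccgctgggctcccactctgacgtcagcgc
RefSeq gave 20 such windows for 9 of the 10 genes, and Slc2a4 was not matched. Either core was present in 13 of the 20 windows, against 38.6% of 32851 mouse windows of the same length. All 9 genes had a core in at least 1 window. The first listed windows of Hk1, Pfkfb1, Aldoa and Pkm, which are not printed here, held neither core. ACGTG alone occurs in 16.6% of all windows and GCGTG in 28.2%. CACGTG, the E-box that MYC and the glucose sensor ChREBP are known to bind, contains ACGTG on both strands; it was found in the Ldha and Pfkm windows (2 of 20), against 6.02% of all windows. TGATGNAA, the composite element of CHOP and ATF4, was searched on both strands and was in 0 of the 20 windows, against 3.45% of all windows. Several windows of 1 gene overlap, and a match or its absence in these letters describes the window only.

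Among the transporters, Slc2a1 (ENSMUSG00000028645, chr4:119108711-119137983 on GRCm38, plus strand) had 13.8, 13.7, 12.3 and 12.8 CPM in transgenic hearts A, B, C and E, against 8.36, 8.24, 11.9 and 8.51 CPM in non-transgenic hearts (A, B, D, E). Every transgenic heart was above every non-transgenic heart, although the margin between transgenic C and the library labelled non-transgenic D was small. The means were 13.1 ± 0.735 CPM and 9.24 ± 1.75 CPM (n = 4 each, SD), with a log2 fold change of 0.50 (SE 0.13, 95% interval 0.21 to 0.80, edgeR adjusted p = 0.140). GLUT1 is also made by endothelial cells. The 10 endothelial markers summed to 1294 to 1343 CPM in transgenic and 1387 to 1653 CPM in non-transgenic hearts. Their median log2 fold change was only -0.07, and 1 of them was lower at an unadjusted p under 0.05, where 5.38% of all genes were. That gene, Fabp4, averaged 382 CPM in transgenic and 550 CPM in non-transgenic hearts and weighed heavily in the sums. The part of endothelial cells in the Slc2a1 level was not tested.

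Slc2a4 (ENSMUSG00000018566, chr11:69942539-69948188, minus strand) had 361.8, 410.4, 382.7 and 365.0 CPM in transgenic hearts A, B, C and E, against 510.8, 376.2, 417.9 and 426.3 CPM in non-transgenic hearts (A, B, D, E). The groups overlapped because transgenic B and C were above non-transgenic B. The log2 fold change was -0.19 (SE 0.11, 95% interval -0.43 to 0.05, edgeR adjusted p = 0.611), with an interval that includes 0. Without non-transgenic A it was -0.10.

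The ratio of counts of Slc2a4 to Slc2a1 within a heart does not depend on how libraries are scaled to each other. It was 26.2, 30.0, 31.1 and 28.6 Slc2a4 reads per Slc2a1 read in transgenic hearts A, B, C and E, against 61.0, 45.6, 35.2 and 50.1 in non-transgenic hearts (A, B, D, E). All 4 transgenic hearts were below all 4 non-transgenic hearts. The mean log2 ratio was 4.85 ± 0.11 in transgenic and 5.56 ± 0.33 in non-transgenic hearts (n = 4 each, SD), a difference of -0.70. The exact two-sided permutation test gave p = 0.0286, the smallest that 70 arrangements allow, and 0.0571 after Benjamini-Hochberg adjustment over the 6 ratios tested. Without the library labelled D the difference was -0.84, with no test. The ratios are built from the same counts as the fold changes and are no second line of evidence for them.

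The hexokinases had log2 fold changes of opposite sign. Hk1 (ENSMUSG00000037012, chr10:62268855-62379908, minus strand), which binds mitochondria and is widely expressed, had 256.3, 326.0, 303.6 and 277.5 CPM in transgenic hearts A, B, C and E, against 242.1, 175.2, 231.3 and 263.2 CPM in non-transgenic hearts (A, B, D, E). Only transgenic A lay within the range of the non-transgenic hearts, below heart E. The log2 fold change was 0.35 (SE 0.13, 95% interval 0.05 to 0.65, edgeR adjusted p = 0.370). Hk2 (ENSMUSG00000000628, chr6:82725025-82774454, minus strand), the insulin-regulated hexokinase of adult muscle, had 339.4, 407.6, 403.3 and 390.3 CPM in transgenic hearts, against 418.6, 330.0, 459.6 and 428.0 CPM in non-transgenic hearts, in the same heart order. The transgenic hearts lay within the non-transgenic range, with a log2 fold change of -0.09 (SE 0.12, 95% interval -0.35 to 0.18, edgeR adjusted p = 0.859). It moved to -0.03 without transgenic A or without the library labelled D, and to -0.18 without non-transgenic B.

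Within hearts there were 1.32, 1.25, 1.33 and 1.41 Hk2 reads per Hk1 read in transgenic hearts A, B, C and E, against 1.73, 1.88, 1.99 and 1.63 in non-transgenic hearts (A, B, D, E). The groups did not overlap, and the library labelled non-transgenic D was the farthest from the transgenic hearts. The log2 ratio differed by -0.44, from means of 0.41 ± 0.07 in transgenic and 0.85 ± 0.13 in non-transgenic hearts (n = 4 each, SD; exact permutation p = 0.0286, adjusted 0.0571).

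**Figure D2:**
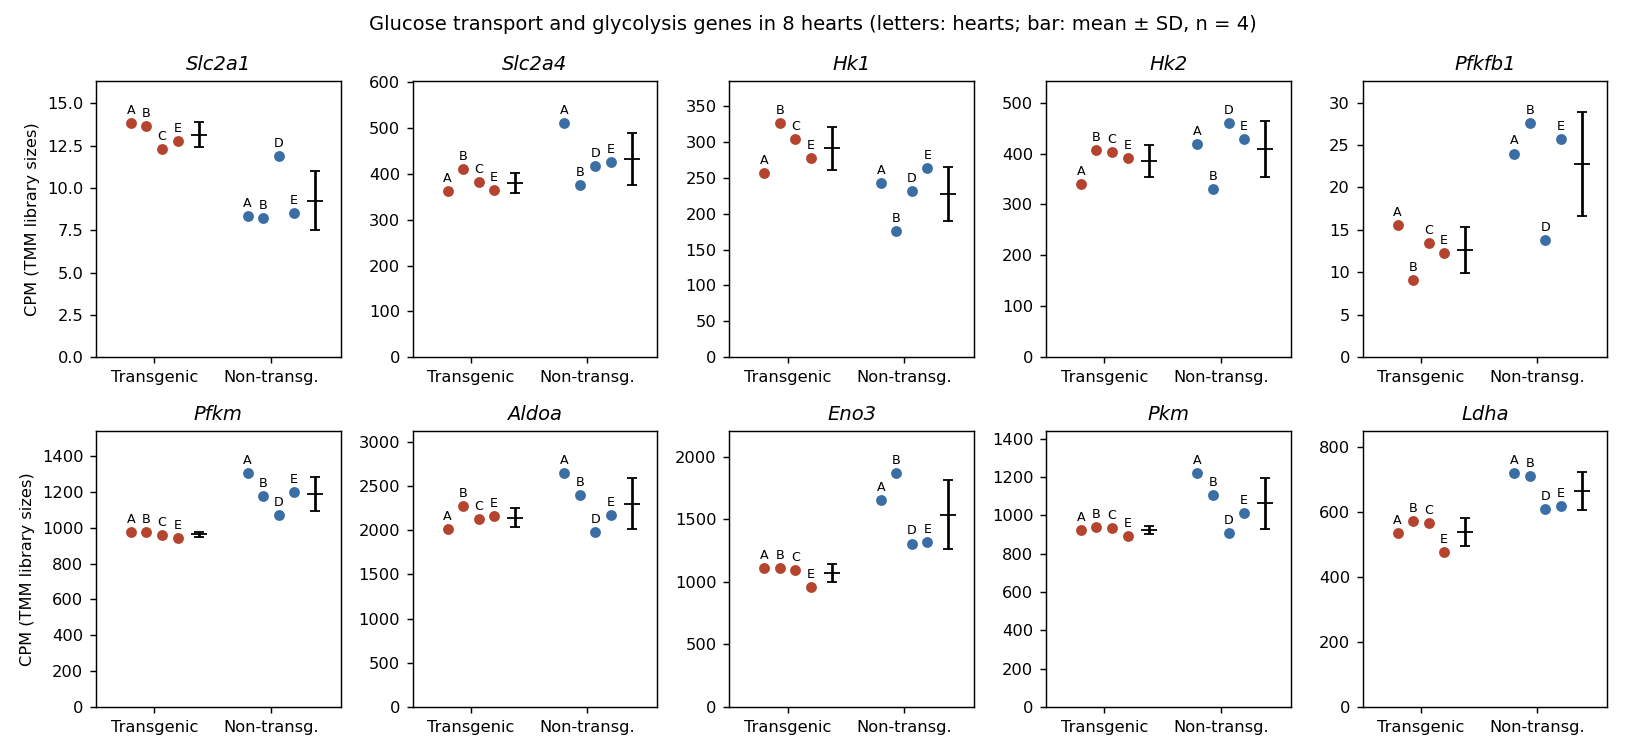
Each panel plots 1 gene in CPM from TMM-scaled library sizes, with the 4 transgenic hearts in red at the left and the 4 non-transgenic hearts in blue at the right, letters naming hearts and bars giving mean ± SD (n = 4). The groups are apart for Slc2a1, Pfkm, Eno3 and Ldha, and for Pfkfb1 non-transgenic heart D alone lies within the transgenic range of 9.14 to 15.6 CPM.

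At the phosphofructokinase step, Pfkm (ENSMUSG00000033065, chr15:98092589-98132451, plus strand) encodes the muscle subunit of the enzyme. It had 975.2, 973.5, 960.7 and 942.8 CPM in transgenic hearts A, B, C and E, against 1306, 1177, 1069 and 1199 CPM in non-transgenic hearts (A, B, D, E). The transgenic hearts were tightly grouped and all below the non-transgenic hearts, of which D was the lowest. The log2 fold change was -0.30 (SE 0.09, 95% interval -0.50 to -0.10, edgeR adjusted p = 0.208). Relative to the liver-type subunit Pfkl, the log2 ratio was 2.74 ± 0.13 in transgenic and 2.98 ± 0.21 in non-transgenic hearts (n = 4 each, SD). Those ratios overlapped, with a difference of -0.25 (exact permutation p = 0.114, adjusted 0.137). Without non-transgenic B the difference was -0.15.

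Pfkfb1 (ENSMUSG00000025271, chrX:150588229-150643878, plus strand) encodes a bifunctional enzyme, known from liver and muscle, that makes and removes fructose 2,6-bisphosphate, the activator of phosphofructokinase. It had 15.6, 9.14, 13.4 and 12.3 CPM in transgenic hearts A, B, C and E, against 24.0, 27.6, 13.9 and 25.8 CPM in non-transgenic hearts (A, B, D, E). Non-transgenic A, B and E were above all transgenic hearts, and the library labelled D lay inside the transgenic range. Of the 10 genes it had the largest log2 fold change in size, at -0.85 (SE 0.22, 95% interval -1.35 to -0.36, edgeR adjusted p = 0.141). Leaving out both the library labelled D and transgenic A, an alternative chosen after seeing the data, gave -1.15 (edgeR adjusted p = 0.00640), in a fit that called 2.09% of all genes. Pfkfb2, the cardiac isoform of the enzyme, had a log2 fold change of 0.04, and the log2 ratio of Pfkfb1 to Pfkfb2 averaged -1.97 ± 0.35 in transgenic and -1.08 ± 0.66 in non-transgenic hearts (n = 4 each, SD). That difference of -0.89 did not pass (exact permutation p = 0.0857, adjusted 0.129). Without the library labelled D the difference was -1.20, with no test.

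Further down the pathway, Aldoa (ENSMUSG00000030695, chr7:126795234-126800751, minus strand), the muscle aldolase, had 2013, 2276, 2132 and 2159 CPM in transgenic hearts A, B, C and E, against 2651, 2401, 1984 and 2177 CPM in non-transgenic hearts (A, B, D, E). The library labelled D was the lowest of all 8, and the groups overlapped. The log2 fold change was -0.10 (SE 0.11, 95% interval -0.34 to 0.14, edgeR adjusted p = 0.815). It was -0.03 without non-transgenic A and -0.18 without the library labelled D. Pkm (ENSMUSG00000032294, chr9:59656368-59679375, plus strand), pyruvate kinase of muscle, had 924.6, 939.9, 932.8 and 891.3 CPM in transgenic hearts, against 1222, 1107, 908.6 and 1012 CPM in non-transgenic hearts, in the same heart order. Only the library labelled D was below any transgenic heart, with a log2 fold change of -0.20 (SE 0.10, 95% interval -0.44 to 0.03, edgeR adjusted p = 0.545). Without non-transgenic A it was -0.13. Gene counts pool the M1 and M2 splice forms of Pkm, which were not separated.

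Eno3 (ENSMUSG00000060600, chr11:70657202-70662513, plus strand), the muscle enolase, had 1113, 1108, 1090 and 961.1 CPM in transgenic hearts A, B, C and E, against 1653, 1870, 1305 and 1317 CPM in non-transgenic hearts (A, B, D, E). All transgenic hearts were below all non-transgenic hearts, and non-transgenic A and B were well above D and E. The log2 fold change was -0.52 (SE 0.13, 95% interval -0.82 to -0.23, edgeR adjusted p = 0.118), with means of 1068 ± 72.1 and 1536 ± 275 CPM (n = 4 each, SD). Scaling by library totals alone in place of TMM brought it to -0.43 with an edgeR adjusted p of 0.0280, in a fit that called 1.27% of all genes.

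Eno1, the enolase found in most tissues, had a log2 fold change of -0.06, and Eno3 reads per Eno1 read were 26.7, 23.8, 22.8 and 23.7 in transgenic hearts A, B, C and E, against 34.3, 36.0, 30.5 and 32.4 in non-transgenic hearts (A, B, D, E). The groups were separate, including the library labelled D. The mean log2 ratio was 4.60 ± 0.10 in transgenic and 5.05 ± 0.10 in non-transgenic hearts (n = 4 each, SD), a difference of -0.46 (exact permutation p = 0.0286, adjusted 0.0571).

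Ldha (ENSMUSG00000063229, chr7:46841475-46855627, plus strand), the lactate dehydrogenase subunit of fast muscle, had 537.3, 573.3, 566.0 and 478.9 CPM in transgenic hearts A, B, C and E, against 721.7, 712.7, 609.9 and 619.1 CPM in non-transgenic hearts (A, B, D, E). The groups did not overlap, and the log2 fold change was -0.31 (SE 0.10, 95% interval -0.53 to -0.08, edgeR adjusted p = 0.294). Ldhb, the heart-type subunit, had a log2 fold change of -0.32 (edgeR adjusted p = 0.422). The log2 ratio of Ldha to Ldhb differed by -0.00, with -0.82 ± 0.09 in transgenic and -0.81 ± 0.15 in non-transgenic hearts (n = 4 each, SD; exact permutation p = 1). Leaving out single hearts moved that difference to between -0.07 and 0.05, on both sides of 0.

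**Figure D3:**
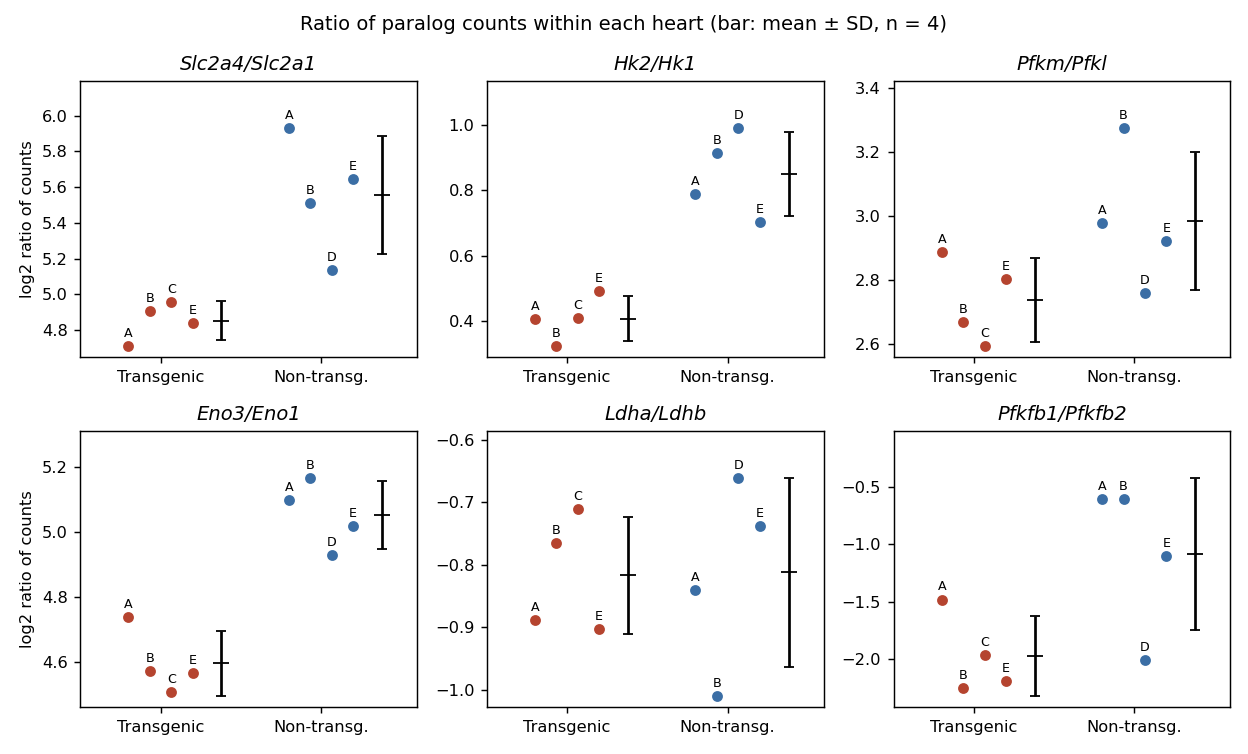
The log2 ratio of counts of a gene to its paralog is plotted for each heart, transgenic in red at the left and non-transgenic in blue at the right, with bars for mean ± SD (n = 4) and a separate vertical scale in each panel that does not start at 0. The groups are apart for Slc2a4/Slc2a1, Hk2/Hk1 and Eno3/Eno1, and they overlap for Pfkm/Pfkl, Ldha/Ldhb and Pfkfb1/Pfkfb2.

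Per kilobase of merged exons, Aldoa was the most abundant of the 10 in transgenic hearts at 737 ± 37.0 CPM per kb, followed by Eno3 at 614 ± 41.5 CPM per kb (SD, n = 4). Non-transgenic hearts had the reverse order of means, with Eno3 at 883 ± 158 and Aldoa at 791 ± 98.9 CPM per kb (SD, n = 4), and the ranges of these neighbours overlapped. The next 6 places were the same in both groups, namely Pfkm, Pkm, Ldha, Slc2a4, Hk2 and Hk1, with CPM per kb from 288 down to 34.1 in transgenic and from 356 down to 26.7 in non-transgenic hearts. Of neighbours among these, Pkm and Ldha overlapped in non-transgenic hearts. The lowest levels were those of Slc2a1 and Pfkfb1, at 3.75 and 3.14 CPM per kb in transgenic hearts, where they overlapped, and 2.64 and 5.67 CPM per kb in non-transgenic hearts, where they did not. Merged exons pool all annotated transcripts of a gene and need not match the length of the mRNA expressed. In CPM, without that divisor, mean Aldoa was above mean Eno3 in both groups (2145 and 1068 transgenic, 2303 and 1536 non-transgenic). Levels of the 10 genes summed to 6719 ± 250.3 CPM in transgenic and 7857 ± 770 CPM in non-transgenic hearts (n = 4 each, SD).

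The genes whose levels across the 8 hearts were closest to Eno3, by root mean square distance of centred log2 CPM over 8741 genes, were the muscle genes Mb (myoglobin, 0.06), Tpm1 (tropomyosin, 0.06) and Cox7a1 (the muscle form of a cytochrome oxidase subunit, 0.07). For Pfkfb1 they were Cyp4b1 (0.17), Tmod4 (0.18), a tropomodulin of muscle, and Fah (0.21). Tmod4 passed the test with a log2 fold change of -1.02 (edgeR adjusted p = 0.0168). All 6 were picked for their likeness to Eno3 or Pfkfb1 over the same 8 hearts. Their group differences follow from that choice and are no separate evidence. Of 13 skeletal muscle markers, 3 that the heart also expresses were tested, and they summed to 2484 to 3432 CPM in transgenic and 2836 to 4023 CPM in non-transgenic hearts. The other markers in that list, the fast myosins among them, were not analysed here.

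A scaling by cardiomyocyte markers, chosen after seeing the data, turned several of these directions. When libraries were scaled to the geometric mean of the 10 markers, the median log2 fold change of all genes moved to 0.32. There Slc2a1 was at 0.81 and Hk1 at 0.65 (edgeR adjusted p = 0.0152 and 0.0216), on a scale where 23.6% of all genes were called higher, while Pfkm and Ldha were both at 0.01, Aldoa at 0.22 and Pkm at 0.12. Eno3 and Pfkfb1 stayed below 0, at -0.20 and -0.52. Slc2a4 was at 0.12 and Hk2 at 0.21. A change of scaling moves all genes by nearly the same amount, so it cannot test where the 10 genes lie relative to the median of all genes.

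Of the wider pathway, 0 of 14 transport genes passed in either direction, with a median log2 fold change of -0.21, beside 0.01 over all genes. The next in that list by p after Slc2a1 were Mpc2, a subunit of the mitochondrial pyruvate carrier (-0.35, edgeR adjusted p = 0.326), and Bsg, the chaperone of monocarboxylate transporters (-0.28, edgeR adjusted p = 0.405). Among 23 glycolytic enzymes and lactate dehydrogenases 0 passed. At an unadjusted p under 0.05, 2 were higher, Hk1 and the phosphoglycerate mutase Pgam1, where 5.37% of all genes were. At that p, 4 were lower, Eno3, Pfkm, Ldha and Ldhb, where 5.38% of all genes were. The list median was -0.10. Of 5 enzymes of fructose 2,6-bisphosphate 0 passed, and only Pfkfb1 was below 0. Tigar, which removes fructose 2,6-bisphosphate, was at 0.16 and Pfkfb3, which mainly makes it, at 0.07 (edgeR adjusted p = 0.552 and 0.902).

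Of 12 genes of pyruvate dehydrogenase and its regulators, 0 passed and 10 were below 0, with a median of -0.14, beside 0.01 over all genes. The lowest adjusted p there was that of Pdp2, a phosphatase that activates the complex, at -0.51 (edgeR adjusted p = 0.106). Dld, the E3 subunit, was at -0.33 and Pdk1, a kinase that inhibits the complex, at -0.18 (edgeR adjusted p = 0.512 and 0.667). The pentose phosphate list (8 tested, median 0.03) and the polyol and hexosamine list (7 tested, median -0.04) had 0 genes past the threshold. In the pentose phosphate list the lowest p were those of Taldo1 at -0.15, Pgls at 0.16 and H6pd at 0.19 (edgeR adjusted p = 0.674, 0.689 and 0.748). Transaldolase comes from Taldo1. In the polyol and hexosamine list they were those of Akr1b3, aldose reductase, at -0.32, Khk, ketohexokinase, at -0.32 and Pgm3 at 0.25 (edgeR adjusted p = 0.415, 0.521 and 0.531). Of 22 genes of insulin and AMPK control of GLUT4, 0 passed, and the median was 0.11. Its 3 genes with the lowest p were Prkab1, a subunit of AMPK (-0.35, edgeR adjusted p = 0.220), Aspscr1, which tethers GLUT4 vesicles (0.26, edgeR adjusted p = 0.296), and Igf1r, the receptor of insulin-like growth factor (0.47, edgeR adjusted p = 0.328).

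The list of regulators and targets tied to glucose or low oxygen had 22 tested genes, some of them transcription factors with wider roles. In it 1 gene passed as higher and 0 as lower, where 1.25% of all genes passed in either direction. That gene was Myc, a transcription factor known to raise glycolytic genes in other cells, at 7.15, 7.56, 5.01 and 8.26 CPM in transgenic hearts A, B, C and E, against 1.59, 1.15, 1.96 and 1.54 CPM in non-transgenic hearts (A, B, D, E). The groups were far apart, with a log2 fold change of 2.16 (SE 0.20, edgeR adjusted p = 0.000333). Hif1a, the oxygen-regulated factor, was at 0.15 (edgeR adjusted p = 0.484), and Ankrd37, a target of it, at -0.41 (edgeR adjusted p = 0.555).

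**Figure D4:**
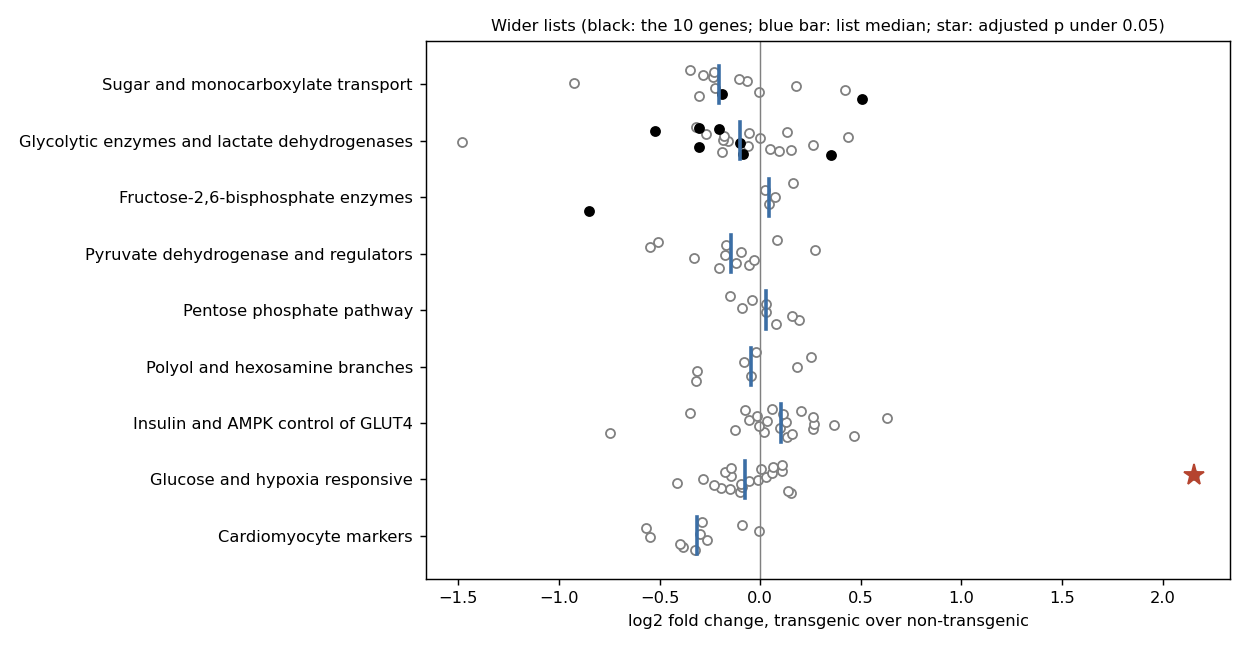
Each row is a list of genes and each circle 1 gene's log2 fold change, transgenic over non-transgenic, with the 10 genes in black, list medians as blue bars and the single gene past an adjusted p of 0.05, Myc at 2.16, as a red star. Cardiomyocyte markers are drawn as the last row, with a median of -0.31, beside -0.21 for transport genes; markers of other cell types are not drawn.

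Some of these counts can include reads of neighbours or copies. Exons of Pkm share 15.3% of their bases with Gm49759 and those of Pfkm 10.2% with Gm26513 on the same strand. Exons of Pfkfb1 share 3.06% with Apex2 and those of Slc2a1 2.99% with Gm12868 on the opposite strand, and the sources used here do not say whether counting used strand. Ldha, Pkm, Aldoa, Eno1 and Pgam1 have near-identical relatives or processed pseudogenes in mouse, so their counts are uncertain to the extent that reads were shared.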

How the data were processed

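The authors deposited raw counts (whole numbers, not normalised) for Ensembl gene IDs in a file for each library. Trimming and alignment tools named in the submitters' processing notes are cutadapt 1.15 and TopHat2, and the build is GRCm38 (mm10). The sources used here do not give the read counter, annotation or strand setting. Symbols and coordinates came from GENCODE M21 on GRCm38, matched by gene ID; 12 IDs had no symbol. The files hold genes that reached about 1 CPM in at least 2 libraries; others were not analysed here.

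The count test was run with edgeR 4.0.16 under R 4.3.3, using filterByExpr (13226 genes kept), TMM scaling and the two-sided quasi-likelihood test of transgenic against non-transgenic hearts, with Benjamini-Hochberg adjustment over all genes and a threshold of 0.05. CPM values use TMM library sizes, and SEs were worked back from the F statistic. Paralog ratios used counts plus 0.5 and an exact permutation test over 70 arrangements. The fit was tested on simulated data, where it recovered 22% of 50 true 1.5-fold changes and 80% of 50 true 2-fold changes. Changes near 1.5-fold were thus mostly missed there. DESeq2 1.42.0 and limma 3.58.1 were alternatives, beside other scalings, filters, offsets, single libraries left out and a block on title letters. The 10 genes, lists and ratios were chosen with earlier results of these data known. Apart from the 10 genes and their paralogs, the text names the 3 genes of each pathway list with the lowest p, those within counts of 5 or fewer, and the 3 genes closest to Eno3 and Pfkfb1. Fabp4 and Pdk4 were named after their values were seen. Aldoc was not analysed here, so 6 of 7 planned ratios were tested. With 4 hearts a group, spread between hearts limits the precision more than counting does.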

Additional observations from a re-analysis of the deposited data

Results flagged for a closer look

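A pair of hearts stood far from the other 3 of their group, out of 40 groups of 4 values examined, where chance gives about 1 in 20. Eno3 was 961 CPM in transgenic heart E, against 1090 to 1113 CPM in transgenic hearts A, B and C. Slc2a1 was 11.9 CPM in the library labelled non-transgenic D, against 8.24 to 8.51 CPM in the other non-transgenic hearts. Without that library, which also held 0 Y-linked counts, the log2 fold change of Slc2a1 was 0.64 (edgeR adjusted p = 0.0128).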

How the results depend on the processing

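With all 8 hearts and edgeR, 0 of the 10 genes were called higher and 0 lower. Leaving out single libraries gave 0 to 1 higher and 0 to 1 lower, with a call made only without the library labelled non-transgenic D, while calls over all genes ran from 103 to 168 higher and 9 to 72 lower (133 and 32 with all hearts). DESeq2 called 1 higher and 3 lower, of 249 and 159 genes in all. Library totals alone called 0 higher and 1 lower, of 138 and 30. Leaving out that library with transgenic A called 1 higher and 1 lower, of 170 and 106, and turned Hk2 to 0.0297. Scaling to cardiomyocyte markers called 2 higher and 0 lower, of 3127 and 27, and moved the median of all genes to 0.32. With that shift Slc2a4 turned to 0.12, Hk2 to 0.21, Pfkm to 0.0135, Aldoa to 0.22, Pkm to 0.12 and Ldha to 0.0125. Both of the last alternatives were chosen after seeing the data. Slc2a1, Hk1, Pfkfb1 and Eno3 kept their direction under every alternative run. Of the 6 paralog ratios, 5 kept their direction and Ldha/Ldhb, near 0, did not. With an offset of 5 counts, the only alternative with a test, none of the 6 changed side of the threshold. That was nearly settled beforehand, since the lowest count of any of the 10 genes was 322. An adjusted p could pass only if most of the 6 ratios were fully separated. Hearts of the same letter deviated together by r = 0.30 (A), -0.08 (B) and 0.36 (E), beside -0.44 to 0.45 for different letters. This does not settle whether letters pair animals, and they were not treated as pairs. With a replicate block, 0 of the 10 genes passed, of 103 higher and 21 lower in all, with Pfkfb1 at -1.09 (edgeR adjusted p = 0.0554), Slc2a1 at 0.68 (0.105) and Hk1 at 0.35 (unadjusted p = 0.0959). Letters C and D are each in 1 group only, so in that fit the group difference rests on letters A, B and E. The library labelled non-transgenic D thus adds nothing to it. Causes were not tested.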

Other observations

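Pdk4, a kinase that shuts off pyruvate dehydrogenase and is known to rise in fasting, varied widely between hearts and was named after its values were seen. It had 284.5, 219.6, 489.6 and 966.3 CPM in transgenic hearts A, B, C and E, against 733.3, 1147, 312.4 and 675.9 CPM in non-transgenic hearts (A, B, D, E). The groups overlapped over most of their range, with a log2 fold change of -0.55 (95% interval -1.61 to 0.51, edgeR adjusted p = 0.770).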
